A study of Homo sapiens with 21 samples.

Results

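The Hippo pathway was followed through 10 of its genes, chosen by symbol among the 23201 gene symbols measured. They are the coactivators *YAP1* and *WWTR1* (which encodes TAZ), the DNA-binding partners *TEAD1* and *TEAD4*, the kinase gene *LATS2*, and the target genes *AMOTL2*, *ANKRD1*, *AXL*, *CTGF* and *CYR61*. The last pair are older symbols of *CCN2* and *CCN1*. All 10 had a mean normalized read count of at least 10 over the libraries and entered the tests. The RNA came from HMLE, an immortalized line derived from human mammary epithelium, with cells either left untreated (d0) or exposed to TGFβ, a cytokine that induces epithelial-to-mesenchymal transition, for 1, 4, 7, 10, 15 or 20 days (d1 to d20). With 3 libraries at each of 7 timepoints there were 21 libraries, made from total RNA of wells that were seeded alike. The cell line was shared by every group, so the only labelled difference between groups was the length of TGFβ exposure, and no untreated culture was sampled at a later day. The amount of TGFβ is not given in the sources used here.

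The Hippo pathway is a kinase cascade that restrains growth and reads cell density, cell shape and the stiffness of the surroundings. MST kinases activate LATS kinases, LATS kinases phosphorylate YAP and TAZ, and the phosphorylated proteins are held in the cytoplasm or degraded. Unphosphorylated YAP and TAZ enter the nucleus, bind TEAD proteins and switch on genes such as *CTGF*, *CYR61* and *ANKRD1*, and among the genes switched on are *LATS2* and *AMOTL2*, whose products act back on YAP and TAZ. Because YAP and TAZ are regulated largely by phosphorylation and location, RNA levels describe the transcripts only, not the activity of the proteins. In mammary epithelium TAZ and YAP are known for roles in stem cell traits and in epithelial-to-mesenchymal transition, and their targets overlap with those of TGFβ and SMAD proteins.

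The libraries held between 18847917 and 22667754 reads. Libraries of one timepoint differed by 0.214 to 0.243 (root mean square, log2 scale) in the 18 pairs outside d7. At d7 the first and second libraries differed by 0.223, but the third stood apart from them by 0.472 and 0.457. It was about as far from the d4 (0.443 to 0.455), d20 (0.445 to 0.455) and d1 (0.478 to 0.488) libraries, and farther from d10 (0.576 to 0.61). Called differences of the 10 genes between d7 and d0, d4 or d10 are therefore also given without it. Comparisons of d7 with d1, d15 or d20, used in the orders of levels, were not refitted and include it. All 6 basal mammary epithelial markers examined were present at every timepoint, with a summed value of 215979 to 708475. They did not move together. At d20, *KRT5* and *TP63* differed from d0 by -1.04 and -0.40 on the log2 scale. *KRT14*, *EGFR* and *ITGA6* differed by 0.33, 0.27 and 1.15, and *KRT17* by 0.31 (adjusted p = 0.291). Of 6 luminal markers, 5 had a mean of at least 10 at every timepoint, and the 6 summed to 11494 to 16811. Of 4 leukocyte markers, 2, *PTPRC* and *CD3E*, were at or under 3 reads in every library. The other two were detected, and the 4 summed to 413 to 424 at d0 and to between 354 and 834 over all libraries. Of these, *CD68* differed from d0 by 1.11 on the log2 scale at d4 (adjusted p = 5.85e-12) and *CD14* by -2.90 at d20 (adjusted p = 2.01e-05), and their part in the results was not tested. For 6 genes of epithelial junctions and the mesenchymal state, the summed value was 18360 to 19158 at d0 and 598522 to 616420 at d20. The mesenchymal genes *FN1*, *VIM*, *CDH2* and *ZEB1* rose by 6.99, 3.62, 6.05 and 6.02 on the log2 scale at d20. The epithelial genes of this list, *CDH1* and *EPCAM*, went the other way, with differences of -1.33 and -2.39. The summed value of 4 proliferation genes was 39358 to 40242 at d0, 13799 to 14201 at d15 and 40041 to 41553 at d20, and its part in the results at d15 was not tested. In bulk RNA, fewer cells of a type and less RNA per cell cannot be told apart.

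Promoter sequences are shown for 4 of these genes, because the TEAD proteins that bind YAP and TAZ recognise the letters GGAATG and the members differ in how often these letters occur near the start. RefSeq (GRCh38.p14) gave windows from 250 bases before to 50 bases after an annotated start for 7 of the 10 genes, 10 windows in all. *TEAD1*, *TEAD4* and *CYR61* had no window. GGAATG was searched on both strands, and it occurred in 6 of the 10 windows, at least once in 6 genes, compared with 14% of all 35116 windows. In the sequences below, which give the 250 bases before the start, 5′ to 3′ on the strand of the gene, the capitals mark GGAATG or its reverse complement CATTCC. The *CTGF* window (chr6:131951373-131951622, minus strand) held 3 matches, and 0.128% of all windows held 3 or more. The *ANKRD1* window (chr10:90921088-90921337, minus strand) held 2, and 1.37% of all windows held 2 or more. The *AMOTL2* sequence (the second of its windows, chr3:134374448-134374697, minus strand) and the *YAP1* sequence (chr11:102110197-102110446, plus strand) held 1 each, and *YAP1* is shown as a gene whose RNA level hardly moved.
CTGF: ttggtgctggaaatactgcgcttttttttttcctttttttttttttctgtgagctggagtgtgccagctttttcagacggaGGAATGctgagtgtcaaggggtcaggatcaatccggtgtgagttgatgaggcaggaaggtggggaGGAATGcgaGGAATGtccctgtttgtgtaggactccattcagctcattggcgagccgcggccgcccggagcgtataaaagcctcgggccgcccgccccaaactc
ANKRD1: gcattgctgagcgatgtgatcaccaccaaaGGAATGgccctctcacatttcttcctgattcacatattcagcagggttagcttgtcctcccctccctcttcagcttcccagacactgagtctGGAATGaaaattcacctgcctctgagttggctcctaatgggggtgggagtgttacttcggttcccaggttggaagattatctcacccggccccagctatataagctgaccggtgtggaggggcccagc
AMOTL2: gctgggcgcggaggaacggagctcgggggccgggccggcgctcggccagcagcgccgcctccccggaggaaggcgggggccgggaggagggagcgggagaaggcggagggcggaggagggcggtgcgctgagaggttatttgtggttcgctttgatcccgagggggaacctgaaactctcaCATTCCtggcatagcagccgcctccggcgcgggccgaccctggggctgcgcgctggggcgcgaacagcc
YAP1: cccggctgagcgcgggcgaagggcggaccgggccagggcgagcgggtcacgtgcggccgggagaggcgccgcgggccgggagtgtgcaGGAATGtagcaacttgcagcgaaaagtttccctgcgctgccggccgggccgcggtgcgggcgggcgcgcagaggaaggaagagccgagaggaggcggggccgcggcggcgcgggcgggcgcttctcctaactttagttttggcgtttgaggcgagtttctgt

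The matches lay 169, 104 and 95 bases before the start in *CTGF*, 220 and 128 before it in *ANKRD1*, 69 before it in *AMOTL2* and 162 before it in *YAP1*. *AXL* had 1 match in its second window, 212 bases before the start, and *LATS2* had 1 match 10 bases after the start. Neither window of *WWTR1* held one. An AP-1 motif (TGANTCA) was found only in *ANKRD1* among the members' windows, against 7.71% of all windows, and the short SMAD motif CAGAC was found in 7 of the members' windows, against 45.3% of all windows. In *ANKRD1*, a CAGAC match on the opposite strand and the GGAATG match 128 bases before the start shared 1 base, and no other matches overlapped. The matches describe letters in these windows, and binding was not measured.

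**Figure D1:**
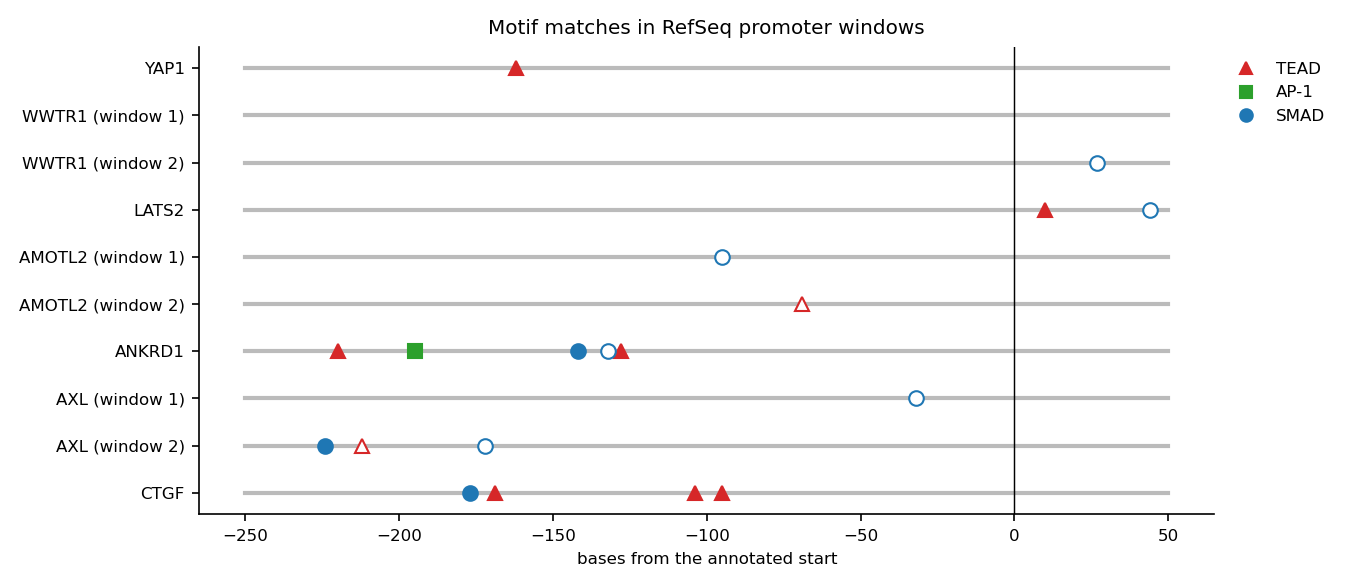
Position of motif matches in the RefSeq promoter windows of 7 genes. The x axis gives bases from the annotated start (0), each grey line is 1 window, red triangles are TEAD (GGAATG), green squares AP-1 (TGANTCA) and blue circles SMAD (CAGAC) matches, filled where the motif reads along the gene's strand and open where it reads against it. *CTGF* holds 3 TEAD matches and *ANKRD1* 2, and the other windows hold 1 or 0.

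Most of these genes were higher in TGFβ-treated cells than in untreated cells on every day, and *CTGF* and *CYR61* lay 1.82 to 3.33 above it on the log2 scale. Differences were tested with limma on log2(value + 1), with adjustment over the 13343 genes tested, and called at an adjusted p under 0.05. At d1, 9 of the 10 genes rose and 0 fell, while 31.3% of all tested genes rose and 28.5% fell. At d4, 7 rose and 0 fell (36.9% and 35.3% of all genes). At d7, 7 rose and 2 fell (34.6% and 32.6%), with the same counts without the third d7 library (36.8% and 34.4%). At d10, 8 rose and 0 fell (37% and 30.7%). At d15, 7 rose and 1 fell (39.2% and 37.3%), and at d20, 7 rose and 2 fell (32.5% and 30.2%). The median log2 difference of the 10 genes from d0 was 0.54, 0.72, 0.75, 0.55, 0.98 and 0.53 on the successive days, whereas the median over all tested genes stayed between 0 and 0.03. The 6 comparisons share the same 3 untreated libraries. The paper describes the samples as biological triplicates, but nothing in the labels ties each library to a separate culture. The p-values therefore measure the spread between these libraries.

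The counts at small differences depended on the scaling. When every library was scaled to an equal total, the median log2 difference of all genes from d0 lay between -0.20 and -0.14. Over the successive days this scaling gave 6, 7, 7, 6, 7 and 7 genes higher and 1, 3, 3, 2, 2 and 3 lower. Under this scaling the shares of all genes called higher and lower were 18.3% and 50.2% on d1, and 19.9% and 50.8% on d20. Over the 6 days they ran from 18.3% to 30.3% higher and from 47.2% to 50.8% lower. Quantile normalization gave 7, 7, 7, 8, 7 and 7 higher and 1, 3, 3, 1, 1 and 3 lower. It called 25.8% to 37.1% of all genes higher and 34.5% to 40.6% lower. Counted at a minimum of 2-fold, the genes that rose numbered 3, 3, 3, 4, 5 and 4 on the successive days. The background at 2-fold or more was 6.47%, 9.68%, 8.79%, 6.94%, 11.7% and 7.51% of all tested genes.

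**Figure D2:**
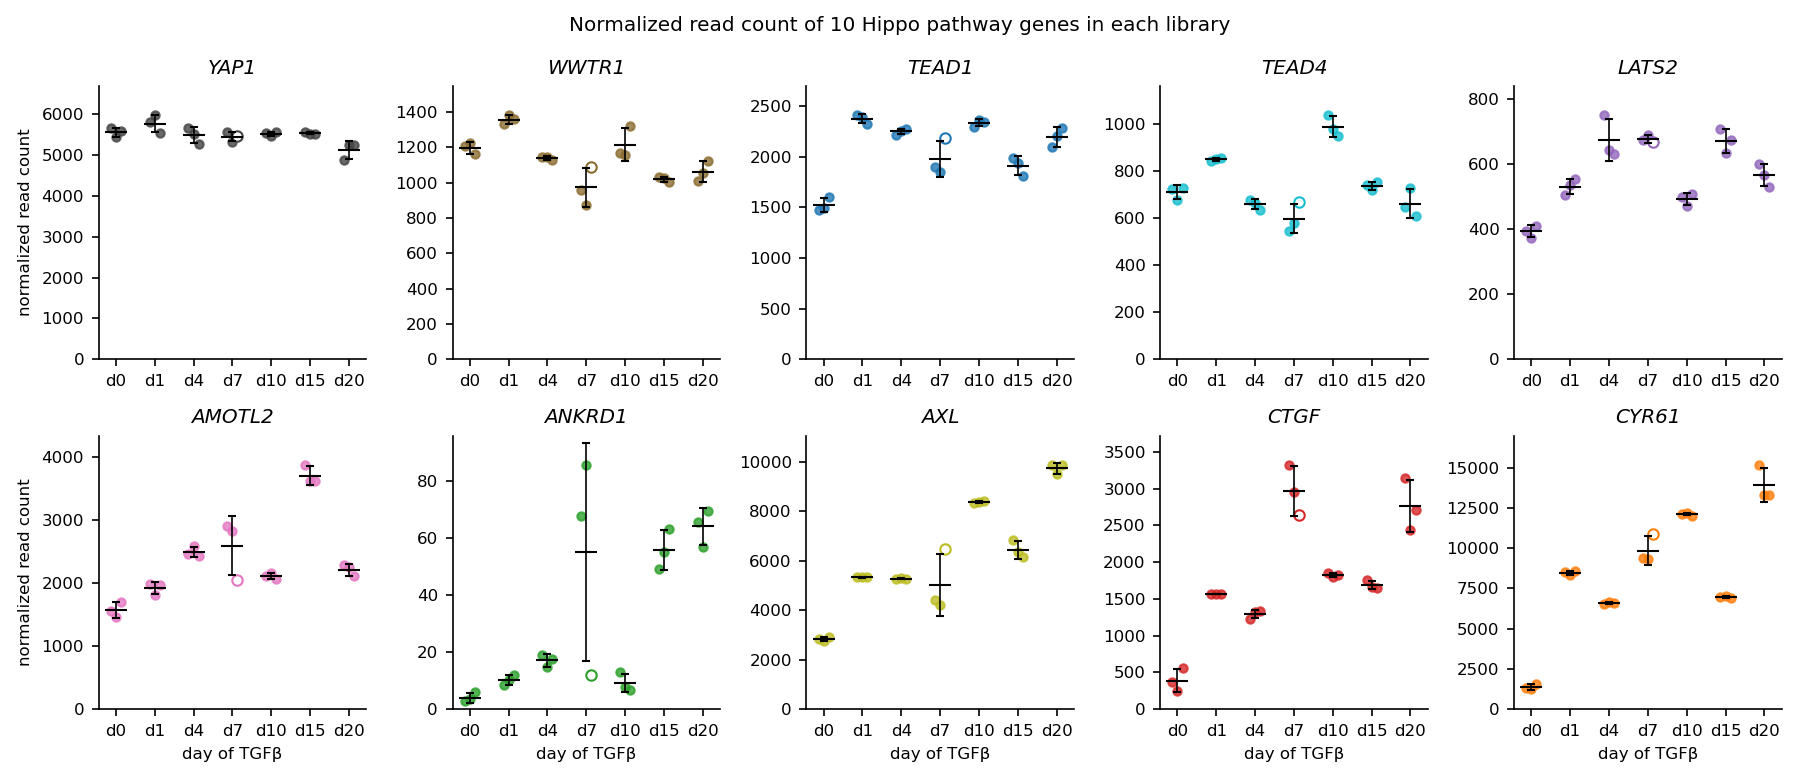
Normalized read count (y axis, linear from 0, a scale per gene) of the 10 genes in each library against the day of TGFβ (x axis). Dots are libraries, the open dot is the third d7 library, and black bars give the mean ± SD of 3 libraries. *YAP1* stays between 4885 and 5979 in all 21 libraries, whereas every treated library of *AXL*, *CTGF* and *CYR61* lies above the untreated ones.

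*YAP1* and *WWTR1* encode the paired coactivators YAP and TAZ, which carry the output of the pathway into the nucleus. *YAP1* had normalized read counts of 5662, 5445 and 5584 in the untreated libraries and of 4885, 5250 and 5260 at d20. The d20 libraries were all below the untreated ones, and on every other day the libraries overlapped with d0. Its means spanned 1.13-fold over the 7 timepoints, from 5132 ± 213 (SD, n = 3) at d20 to 5777 ± 219 at d1. The log2 difference at d20 was -0.12 (SE 0.04, adjusted p = 0.00837), and without the first d20 library it was -0.08 (adjusted p = 0.0707). At d1 the difference was 0.05 (adjusted p = 0.214), and it was -0.14 with equal totals (adjusted p = 0.00149) and -0.12 with quantile normalization (adjusted p = 0.00634). Equal totals also gave lower *YAP1* at d4, d7, d10 and d15, by -0.22, -0.22, -0.24 and -0.17, which is close to the median of all genes under that scaling. Quantile normalization gave -0.14, -0.10 and -0.23 at d4, d7 and d10 (adjusted p = 0.0014, 0.0193 and 8.35e-06). The medians of all genes were then -0.07, -0.07 and -0.03. At d15 it gave -0.05 (adjusted p = 0.167), and at d20 -0.27 (adjusted p = 9.9e-07). In the order of mean levels (d1, d0, d15, d10, d4, d7, d20), the neighbours d7 and d20 alone were separated (adjusted p = 0.0399).

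*WWTR1* went up slightly and then down. Its values were 1209, 1225 and 1160 at d0, 1331, 1382 and 1360 at d1, and 956, 875 and 1090 at d7. All d1 libraries lay above d0 and all d7 libraries below it, and only d10 overlapped with d0 among the treated days. The log2 difference was 0.18 at d1 (SE 0.06, adjusted p = 0.0167), although equal totals turned it to -0.01 (adjusted p = 0.874). At d7 it was -0.30 (adjusted p = 0.000209), and -0.39 without the third d7 library. It was -0.23 at d15 (adjusted p = 0.00204), where the libraries held 1032, 1024 and 1002, and -0.17 at d20 (adjusted p = 0.0204), where they held 1009, 1057 and 1124. At d4 the libraries (1143, 1146 and 1126) were below d0 but the difference of -0.07 did not pass the test (adjusted p = 0.3), although it did with equal totals (-0.27, adjusted p = 0.000772) and with quantile normalization (-0.15, adjusted p = 0.0397). At d10 it was 0.02 (adjusted p = 0.797), and -0.21 with equal totals (adjusted p = 0.00689). The call at d1 was lost with quantile normalization (0.10, adjusted p = 0.162) and without the third d0 library (adjusted p = 0.065) or the second d1 library (0.0531), and the call at d20 without the first d0 (0.0546), second d0 (0.0665) or first d20 library (0.0997). In its order of levels, d1, d10, d0, d4, d20, d15 and d7, no neighbours were separated.

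*TEAD1* and *TEAD4* encode TEAD transcription factors, the proteins that place YAP and TAZ on DNA. *TEAD1* rose within 1 day and stayed up. Its values were 1475, 1495 and 1600 at d0, 2410, 2393 and 2324 at d1, and 2098, 2202 and 2289 at d20. Every treated library lay above every untreated one. Its log2 differences from d0 were 0.64, 0.56, 0.37, 0.62, 0.33 and 0.53 on the successive treated days (SE 0.05, adjusted p from 7.5e-10 at d1 to 7.45e-06 at d15). The d7 value was 0.30 without the third d7 library. With equal totals the differences were 0.17 to 0.45, all past the threshold. The levels ran in the order d1, d10, d4, d20, d7, d15, d0. Among neighbours, d20 and d7 (adjusted p = 0.0145) and d15 and d0 (adjusted p = 7.45e-06) were separated.

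*TEAD4* moved in both directions. It held 724, 677 and 728 at d0, 842, 848 and 855 at d1, 546, 577 and 665 at d7, and 1035, 977 and 948 at d10. The d1 and d10 libraries were all above d0, the d7 libraries all below it, and d4, d15 and d20 overlapped with it. The log2 difference was 0.26 at d1 (SE 0.07, adjusted p = 0.0021), -0.26 at d7 (adjusted p = 0.00187) and 0.48 at d10 (adjusted p = 1.94e-06). It was -0.34 at d7 without the third d7 library. It did not pass the test at d4 (-0.11, adjusted p = 0.153), d15 (0.05, adjusted p = 0.479) or d20 (-0.11, adjusted p = 0.162), and at d15 the sign was negative with equal totals (-0.11). Equal totals ended the call at d1 (0.07, adjusted p = 0.408). At d4 it was called lower with equal totals (-0.30, adjusted p = 0.000459) and with quantile normalization (-0.17, adjusted p = 0.0279). The call at d20 was gained with equal totals (-0.31), with quantile normalization (-0.17) and without the second d20 library (-0.18, adjusted p = 0.0277). In the order d10, d1, d15, d0, d4, d20, d7, the level at d10 was separated from d1 (adjusted p = 0.0158) and d1 from d15 (adjusted p = 0.00802).

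*LATS2* encodes a kinase that phosphorylates YAP and TAZ, and *AMOTL2* encodes an angiomotin family protein that can bind them and hold them outside the nucleus. Both were higher than in untreated cells on every treated day. *LATS2* held 395, 373 and 410 at d0, 749, 643 and 629 on d4, and 674, 688 and 666 on d7. The d10 libraries held 498, 472 and 506 and the d15 libraries 708, 634 and 672. All treated libraries lay above d0, and d10 was the lowest of the treated days. The log2 differences of *LATS2* from d0 were 0.43, 0.77, 0.78, 0.32, 0.77 and 0.52 (SE 0.07), all called, with adjusted p of 1.12e-09 at d7 and 0.000175 at d10, and the d7 value was 0.79 without the third d7 library. The call at d10 ended with equal totals (0.10, adjusted p = 0.184). Levels ran in the order d7, d4, d15, d20, d1, d10, d0, with d15 separated from d20 (adjusted p = 0.00188) and d10 from d0.

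*AMOTL2* held 1558, 1458 and 1702 in the untreated libraries and 2908, 2830 and 2050 in the d7 libraries. It held 2116, 2164 and 2058 on d10, 3874, 3617 and 3622 on d15, and 2285, 2252 and 2108 on d20. The d15 libraries were above all others, every treated library was above d0, and the third d7 library was close to the d10 values rather than to the other d7 libraries. Differences from d0 on the log2 scale were 0.29, 0.67, 0.71, 0.43, 1.24 and 0.50 (SE 0.09), all called, with adjusted p of 0.00695 at d1 and 2.81e-11 at d15. Without the third d7 library the d7 value was 0.87. The d1 call ended with equal totals (0.10, adjusted p = 0.314) and with quantile normalization (0.18, adjusted p = 0.104). In the order d15, d7, d4, d20, d10, d1, d0, the level at d15 was separated from d7 (adjusted p = 2.74e-05) and d1 from d0.

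*CTGF* and *CYR61* encode secreted matricellular proteins of the CCN family, and they are the target genes most often used to read out YAP and TAZ. *CYR61* held 1323, 1253 and 1575 in the untreated libraries, 8513, 8334 and 8551 at d1, and 15149, 13277 and 13322 at d20. The lowest treated library, 6494 at d4, was still far above the highest untreated one. On the log2 scale *CYR61* differed from d0 by 2.62, 2.25, 2.83, 3.14, 2.34 and 3.33 (SE 0.07, adjusted p from 1.7e-20 at d20 to 1.31e-17 at d4), with 2.76 at d7 when the third d7 library was left out. The mean at d20, 13916 ± 1068, was 10.1 times that at d0. The rise was not steady. Values went down from d1 to d4 (6494, 6620 and 6595), up to d10 (12126, 12188 and 12018), down at d15 (6953, 7044 and 6874) and up at d20. In the order d20, d10, d7, d1, d15, d4, d0, all neighbours were separated except d15 and d4 (adjusted p = 0.295).

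*CTGF* held 364, 243 and 554 in the untreated libraries, 1564, 1569 and 1570 on d1 and 1229, 1317 and 1340 on d4. The d7 libraries held 3321, 2956 and 2636 and the d20 libraries 3145, 2439 and 2715. The untreated libraries were the most uneven of any timepoint, with 2.28 times between the lowest and the highest, whereas the d1 libraries were nearly equal, and no treated library overlapped with d0. *CTGF* differed from d0 by 2.10, 1.82, 3.01, 2.32, 2.21 and 2.91 on the log2 scale (SE 0.17, adjusted p from 1.18e-12 at d7 to 3.22e-09 at d4). Leaving out one library at a time changed the d20 value to between 2.61 and 3.21, and the d7 value was 3.09 without the third d7 library. The highest mean, at d7, was 7.68 times the untreated one. Levels ran d7, d20, d10, d15, d1, d4, d0, and d20 and d10 (adjusted p = 0.00649) and d4 and d0 were the only neighbours separated.

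*AXL* encodes a receptor tyrosine kinase of the TAM family, and its rise is often noted in mesenchymal cells. It held 2837, 2767 and 2929 at d0, 5344, 5328 and 5328 at d1, 8344, 8376 and 8435 at d10, 6851, 6343 and 6157 at d15, and 9878, 9502 and 9874 at d20. The treated libraries were all above the untreated ones. At d7 the libraries held 4434, 4206 and 6472, so that the third was about as high as the d15 libraries. *AXL* differed from d0 by 0.91, 0.89, 0.80, 1.56, 1.18 and 1.78 on the log2 scale (SE 0.09, adjusted p from 3.44e-13 at d20 to 1.67e-07 at d7), with 3.43-fold between the means of d20 and d0. Without the third d7 library the d7 value was 0.60. In the order d20, d10, d15, d1, d4, d7, d0, neighbours were separated between d10 and d15, d15 and d1, and d7 and d0.

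*ANKRD1* encodes a nuclear ankyrin repeat protein that responds to mechanical strain, and it was by far the scarcest of the 10 genes in reads. The untreated libraries held 2.67, 3.39 and 5.94, which are 3 to 6 reads, with 3 reads treated as the floor of detection. Values reached 8.37, 10.3 and 11.9 on d1, then 18.9, 14.6 and 17.6 on d4. The d7 libraries held 67.5, 85.5 and 12.1, and the d10 libraries 12.9, 7.77 and 6.84. The d15 libraries held 49.0, 55.2 and 63.2 and the d20 libraries 65.7, 56.8 and 69.5. No treated library overlapped with d0, and d10 was close to d1. The d15 and d20 libraries and the first and second d7 libraries were much higher, whereas the third d7 library lay within the range of d1 and d10. The log2 differences from d0, which the added 1 makes smaller at these low values, were 1.20, 1.90, 3.15, 1.03, 3.55 and 3.75 (SE 0.45). Adjusted p was 0.0263 at d1 and 0.048 at d10, and between 2.83e-07 and 0.000768 on the other days. Without the third d7 library the value at d7 was 4.0. The calls at d1 and d10 ended with edgeR (adjusted p = 0.145 and 0.199) and when single libraries were left out (up to 0.1 at d1 and 0.181 at d10). With 10 added in place of 1 the differences were 0.53 and 0.45, and neither was called (adjusted p = 0.164 and 0.227). The d10 call was also lost with DESeq2 (adjusted p = 0.0762), without the filter on low values (0.0746) and with equal totals (0.0963). In the order d20, d15, d7, d4, d1, d10, d0, d7 and d4 (adjusted p = 0.0254) and d10 and d0 were separated. The d7 and d4 separation was lost with only these groups in the fit (adjusted p = 0.178), without the second (0.0762) or the third d4 library (0.0512) and without the first (0.13) or the second d7 library (0.186).

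**Figure D3:**
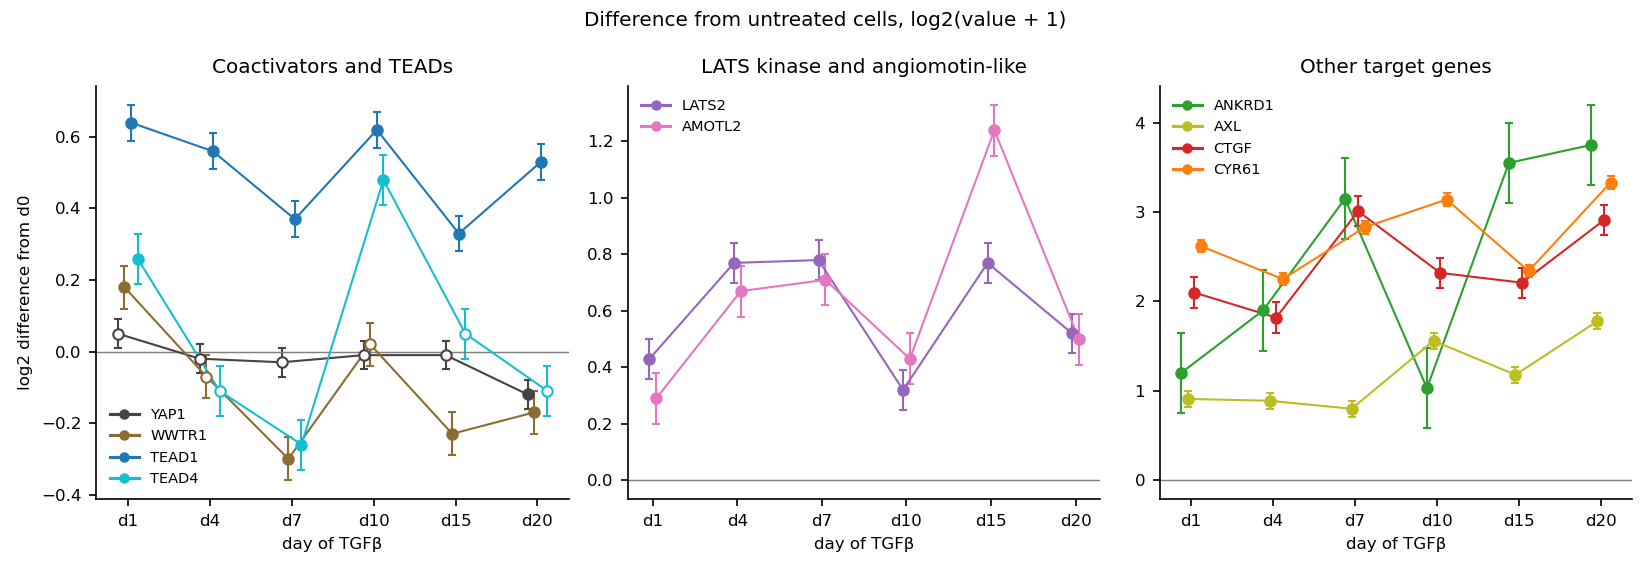
Log2 difference from untreated cells, on log2(value + 1) (y axis, a scale per panel), against the day of TGFβ (x axis) for the coactivators and TEADs, for *LATS2* and *AMOTL2*, and for the other target genes. Points are the limma estimates from 3 libraries a timepoint, bars are their SE, and filled points passed an adjusted p of 0.05. *TEAD1*, *LATS2*, *AMOTL2* and the other targets lie above 0 on every day, whereas *YAP1* stays between -0.12 and 0.05, its d1 value being below 0 with equal totals or quantile normalization.

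The steps between successive timepoints showed the genes moving in different directions. The differences themselves do not contain the untreated values, although the SE was estimated over all 21 libraries. From d1 to d4, 2 genes rose and 3 fell (32.9% and 32% of all genes). *AMOTL2* and *LATS2* rose by 0.38 and 0.34, and *WWTR1*, *TEAD4* and *CYR61* fell by 0.25, 0.37 and 0.37 on the log2 scale. *CTGF*, uneven among the untreated libraries, differed by -0.28 over this step (adjusted p = 0.155), and with only d1 and d4 in the fit the adjusted p was 2.89e-07. From d4 to d7, 3 rose and 2 fell (25.5% in each direction), among them *CTGF* with a difference of 1.19 (SE 0.17, adjusted p = 6.15e-06), *ANKRD1* with 1.25 (adjusted p = 0.0254) and *CYR61* with 0.58, while *WWTR1* and *TEAD1* fell by 0.23 and 0.19. With only d4 and d7 in the fit, the calls of *ANKRD1* (adjusted p = 0.178), *WWTR1* (0.0679) and *TEAD1* (0.0721) were lost, and the *ANKRD1* difference ran from 0.74 to 2.10 when 1 library was left out. Without the third d7 library, 4 rose and 4 fell over this step, where 29.2% of all genes rose and 30.1% fell. The further calls were *AMOTL2* (0.20, adjusted p = 0.000408), *TEAD4* (-0.23, adjusted p = 0.000988) and *AXL* (-0.29, adjusted p = 3.32e-09). In that fit the differences were 1.27 for *CTGF*, 2.10 for *ANKRD1*, 0.51 for *CYR61*, -0.32 for *WWTR1* and -0.26 for *TEAD1*.

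From d7 to d10, 5 genes rose and 4 fell (36.2% and 35.2% of all genes). The coactivator *WWTR1*, both TEADs, *AXL* and *CYR61* rose, by 0.32, 0.24 (*TEAD1*), 0.73 (*TEAD4*), 0.76 and 0.30. *LATS2*, *AMOTL2*, *ANKRD1* and *CTGF* fell by 0.46, 0.28, 2.11 and 0.70. Without the third d7 library the rises were 0.41, 0.31, 0.81, 0.96 and 0.38, and the falling genes differed by -0.47, -0.44, -2.97 and -0.78. The *AMOTL2* call was lost with only d7 and d10 in the fit (adjusted p = 0.0862) and without the first (0.0604) or second d7 library (0.0505), and *ANKRD1* ran from -2.97 to -1.60 when 1 library was left out. From d10 to d15, 3 rose and 5 fell (39.3% and 40.5%). *LATS2* (0.45), *AMOTL2* (0.81, adjusted p = 2.57e-08) and *ANKRD1* (2.52, adjusted p = 3.04e-05) rose, and *WWTR1*, *TEAD1*, *TEAD4*, *AXL* and *CYR61* fell by 0.25, 0.29, 0.42, 0.38 and 0.80, so each gene called in this step moved opposite to the step before it. The proliferation genes summed to 33521 to 34988 at d10 and 13799 to 14201 at d15, and their part in this step was not tested. From d15 to d20, 4 rose and 4 fell (37.7% and 36.3%). *TEAD1*, *AXL*, *CTGF* and *CYR61* rose by 0.20, 0.60, 0.70 and 1.00, and *YAP1*, *TEAD4*, *LATS2* and *AMOTL2* fell by 0.11, 0.16, 0.25 and 0.74. The *YAP1* call was lost without the first d20 library (-0.08, adjusted p = 0.0793). The *TEAD4* call was lost without the first d15 (adjusted p = 0.0706), the third d15 (0.0947), the first d20 (0.0908) or the third d20 library (0.193). Neighbouring steps share a timepoint, so a single high or low timepoint gives opposite differences before and after it, and the reversal is given as a description. At a minimum of 2-fold, 0, 2, 1, 1 and 0 members changed in either direction over the steps from d1 to d20, against 6.17%, 3.78%, 12.7%, 22.2% and 15% of all genes.

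Ratios within a library do not change when a library is scaled by 1 factor, as with equal totals. Quantile normalization can change them, and they were not recomputed under it. 3 libraries against 3 cannot give a permutation p under 0.1, so these ratios were compared by their ranges. The log2 ratio of *TEAD4* to *TEAD1* was -1.10 ± 0.06 (SD, n = 3) at d0, and it was lower in all libraries of every treated day, with differences of -0.38, -0.67, -0.63, -0.14, -0.27 and -0.64 on the successive days. Relative to *TEAD1*, *TEAD4* thus lay nearest to its untreated balance at d10. The ratio of *WWTR1* to *YAP1* was -2.22 ± 0.06 at d0. It was higher in all libraries at d1 (difference 0.13), lower in all at d7 (-0.28, and -0.36 without the third d7 library) and d15 (-0.23), and overlapped with d0 at d4, d10 and d20. The ratio of *CYR61* to *CTGF* was 1.91 ± 0.43 at d0, a wide spread that came with the uneven untreated *CTGF* values. It was above d0 in all libraries at d1 (difference 0.52) and d10 (0.82) and overlapped with it on the other days.

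**Figure D4:**
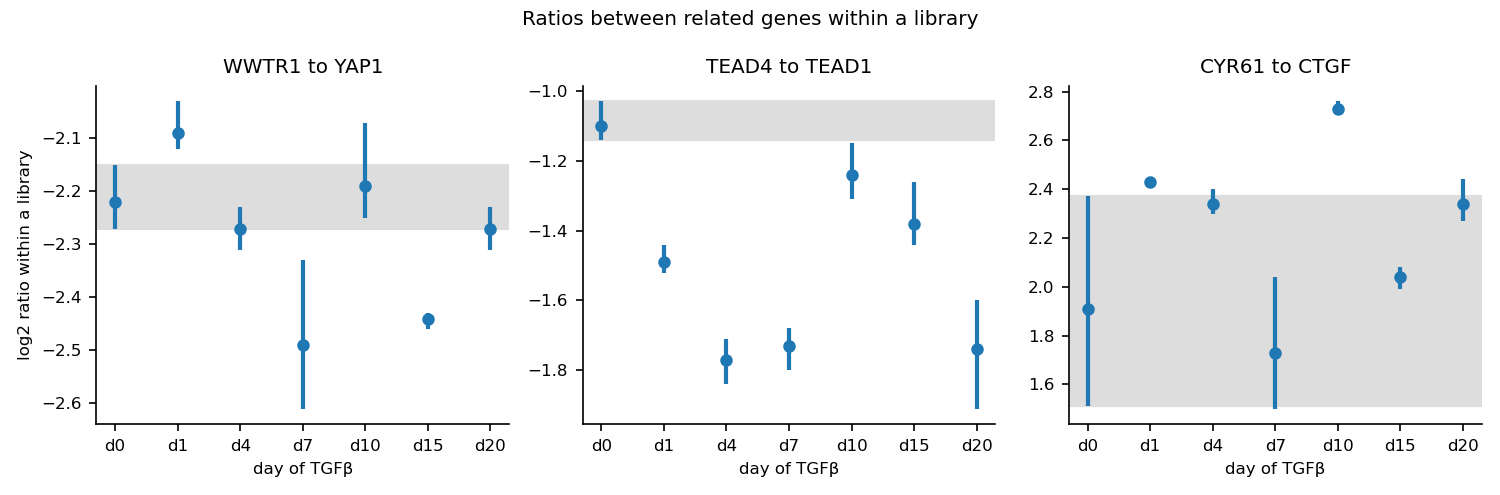
Log2 ratio of normalized read counts within a library (y axis, a scale per panel, not starting at 0) against the day of TGFβ (x axis) for *WWTR1* to *YAP1*, *TEAD4* to *TEAD1* and *CYR61* to *CTGF*. Dots are means of 3 libraries, vertical lines run from the lowest to the highest library, and the grey band is the range of the untreated libraries. *TEAD4* to *TEAD1* lies under the band on all 6 treated days.

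The pathway was then read more widely through 22 kinases, scaffolds and upstream regulators, of which 21 could be tested. *DCHS1* had at most 3 reads in every library. Of the 21, 14, 14, 12, 14, 14 and 11 rose on the successive days and 1, 1, 2, 2, 1 and 4 fell, against 31.3%, 36.9%, 34.6%, 37%, 39.2% and 32.5% of all genes higher and 28.5%, 35.3%, 32.6%, 30.7%, 37.3% and 30.2% lower. At d7, 13 rose and 2 fell without the third d7 library, beside 36.8% and 34.4% of all genes. Most of these differences were small, with list medians of 0.10 to 0.38, and with equal totals 7, 12, 8, 8, 9 and 7 were higher and 5, 5, 6, 5, 5 and 9 lower. Under that scaling 18.3%, 25.8%, 22.7%, 21.5%, 30.3% and 19.9% of all genes were higher and 50.2%, 49.5%, 49.1%, 50.5%, 47.2% and 50.8% lower. A rise of 2-fold or more was called for 1, 1, 3, 2, 2 and 1 of the 21 on the successive days, a share near the 6.47% to 11.7% of all genes. *FRMD6*, a FERM domain protein upstream of the kinases, held 1977, 1884 and 2032 at d0 and 6308, 6220 and 6375 at d20, with a log2 difference of 1.36 at d1 (adjusted p = 1.26e-15) and 1.68 at d20 (adjusted p = 2.37e-17). *MAP4K4*, a kinase that can act on LATS, rose by 0.99 at d1 and 0.76 at d20. *FAT4*, a giant cadherin, rose by 0.99 at d20 (adjusted p = 7.38e-10). *AMOT*, a relative of *AMOTL2*, fell by 0.87 at d1 (adjusted p = 0.0235), with values of only 11.6, 12.7 and 7.92 at d0 and 4.18, 7.18 and 4.96 at d1. That call was lost without the second d0 library (adjusted p = 0.0868), among others. *AMOT* was called higher at d7, by 1.06 (adjusted p = 0.00588), and again at d15, by 0.82 (adjusted p = 0.0247).

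The remaining TEADs and the VGLL genes, whose products bind TEAD in competition with YAP and TAZ, were 6 in number, and 5 could be tested, since *VGLL2* was at 0 in every library. Of the 5, 3, 3, 4, 1, 3 and 2 rose on the successive days and 0, 1, 1, 2, 1 and 3 fell, where 31.3% to 39.2% of all genes rose and 28.5% to 37.3% fell. The d7 counts were the same without the third d7 library, where 36.8% of all genes rose and 34.4% fell. With equal totals 2, 3, 3, 0, 3 and 0 were higher and 1, 2, 1, 4, 1 and 3 lower, where 18.3% to 30.3% of all genes were higher and 47.2% to 50.8% lower. *VGLL3* held 582, 518 and 596 at d0, 823, 798 and 755 at d1, 191, 228 and 218 at d10, and 373, 375 and 389 at d20. It was above d0 at d1, d4, d7 and d15, with log2 differences of 0.49 (adjusted p = 0.00102), 0.88, 0.99 and 0.54 (adjusted p = 0.000221), and below it at d10 and d20, with -1.41 and -0.57 (adjusted p = 0.000185). *VGLL4* rose by 0.39 at d1 (adjusted p = 0.00105) and 0.22 at d20 (adjusted p = 0.0431), and with equal totals neither was called (0.19, adjusted p = 0.0652, and 0.02, adjusted p = 0.862). The d20 call was also lost with edgeR (adjusted p = 0.102), with DESeq2 (0.0799), without the filter on low values (0.0581) and when single libraries were left out (up to 0.236). On the days between, d4, d7, d10 and d15, *VGLL4* was higher by 0.82, 0.94, 0.31 and 1.00, all called. *TEAD3* rose by 0.36 at d1 (adjusted p = 6.99e-07), and its difference of 0.12 at d20 (adjusted p = 0.0325) became -0.08 with equal totals. The d20 call was also lost with quantile normalization (adjusted p = 0.459), edgeR (0.0915) and DESeq2 (0.0846), and when single libraries were left out (up to 0.103). At d4, d7 and d15 *TEAD3* was higher by 0.75, 0.64 and 0.68, all called, and at d10 the difference was 0.06 (adjusted p = 0.272). *VGLL1* was scarce, at 40.0, 41.6 and 44.5 at d0 and 19.1, 11.6 and 21.5 at d20, where it fell by 1.27 on the log2 scale (adjusted p = 0.00732). Its differences at d4, d7, d10 and d15 were larger, -2.16, -1.59, -2.81 and -3.39, all called, and at d1 it was -0.68 (adjusted p = 0.14). The d1 difference was called with 10 added in place of 1 (-0.53, adjusted p = 0.0273), with only d0 and d1 in the fit (0.00806) and with edgeR (0.0229).

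A published set of YAP and TAZ target genes gave 16 targets beyond those described, and 15 could be tested (*FOXF2* had at most 6 reads). Of the 15, 11, 12, 14, 13, 12 and 12 rose on the successive days and 1, 1, 0, 2, 1 and 0 fell, beside 31.3% to 39.2% of all genes higher and 28.5% to 37.3% lower. At d7, 13 rose and 0 fell without the third d7 library, beside 36.8% and 34.4% of all genes. With equal totals 11, 11, 10, 10, 11 and 12 were higher and 4, 3, 1, 3, 2 and 3 lower, beside 18.3% to 30.3% of all genes higher and 47.2% to 50.8% lower. Rises of 2-fold or more numbered 5, 7, 7, 6, 7 and 6 of the 15, beside 6.47% to 11.7% of all genes, and the list medians were 0.72, 1.00, 0.65, 0.93, 0.69 and 0.86. *IGFBP3*, which encodes a secreted binding protein for insulin-like growth factors, held 41.8, 47.5 and 38.6 at d0, 2033, 1970 and 1925 at d1, and 4996, 4950 and 5052 at d20. All of its treated libraries were far above d0, and its log2 difference was 5.51 at d1 (adjusted p = 2.9e-14) and 6.85 at d20 (adjusted p = 4.73e-16). At d7 *IGFBP3* held 3951, 3836 and 1264, the third library again apart. *F3*, which encodes tissue factor, rose by 3.05 at d1 (adjusted p = 1.88e-19). *NT5E*, which encodes the ectonucleotidase CD73, rose by 2.98 at d1 and 2.93 at d20, and *CCDC80*, which encodes an extracellular matrix protein, rose by 3.32 at d20 (adjusted p = 8.38e-18). Many of these targets also respond to TGFβ in other ways, and the part of YAP and TAZ in their levels was not tested.

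**Figure D5:**
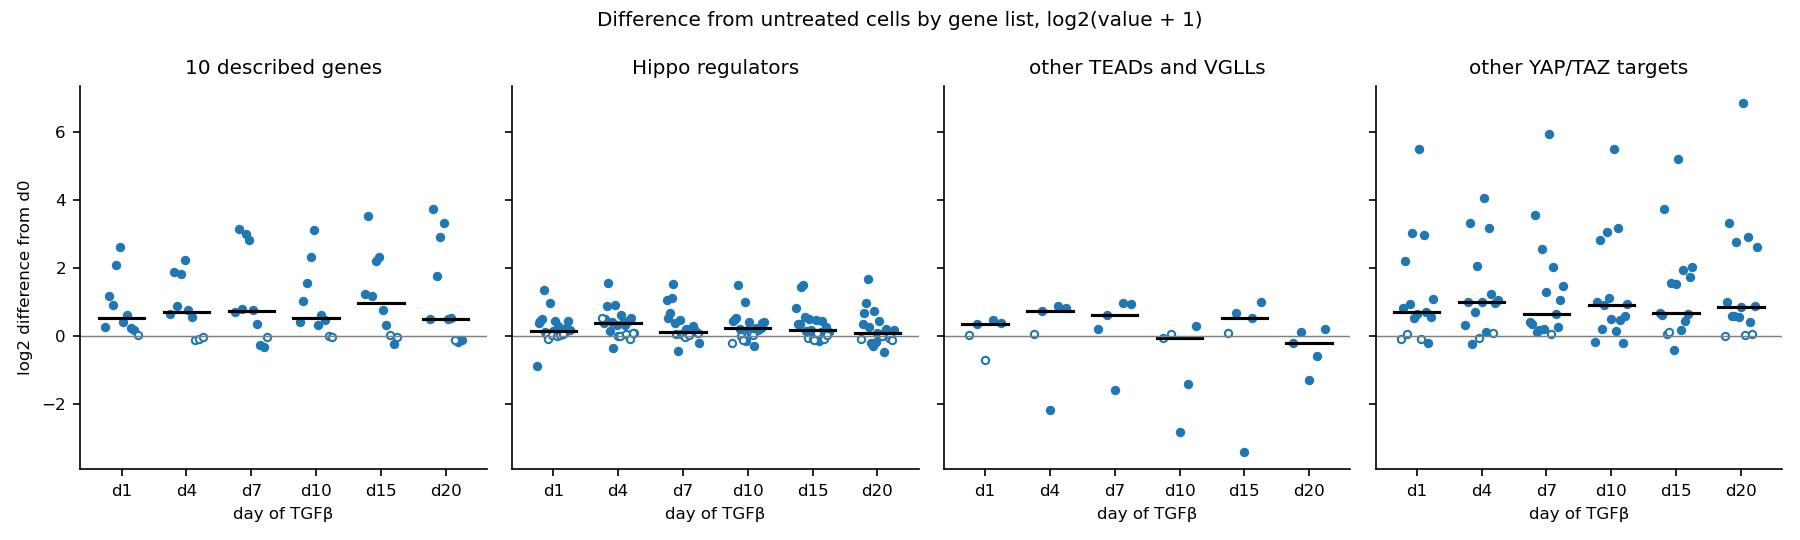
Log2 difference from untreated cells, on log2(value + 1) (y axis, shared), by day of TGFβ (x axis) for the 10 described genes, 21 Hippo regulators, 5 other TEAD and VGLL genes and 15 other YAP and TAZ targets. Each dot is a gene, filled where it passed an adjusted p of 0.05, and black lines are list medians. The medians of the other targets lie between 0.65 and 1.00, those of the regulators between 0.10 and 0.38, and with equal totals the regulators' medians lie between -0.10 and 0.18.

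Genes whose 6 differences from d0 were most like each member's were sought among the tested genes with a mean of at least 50, by the root mean square difference on the log2 scale over the 6 treated days. The nearest were *UBE2G1* to *YAP1* (0.04), *PRDM15* to *WWTR1* (0.07), *C11orf24* to *TEAD1* (0.05), *DUSP12* to *TEAD4* (0.06), *JAK1* to *LATS2* (0.05) and *GOPC* to *AMOTL2* (0.11). The other target genes had more distant neighbours, *NCEH1* for *AXL* (0.17), *MGC16121* for *CYR61* (0.15), *LMCD1* for *CTGF* (0.39) and *COL6A2* for *ANKRD1* (0.46). All 6 differences use the same untreated libraries, and a gene with small differences finds close neighbours easily, so the distances describe shape and size together. None of the 3 nearest genes of any member was another member. *ANKRD1* had a mean under 50 and could not be a neighbour of the others. The other members were a very small part of the 11489 or 11490 candidates, so this is given as a description only.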

How the data were processed

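The authors deposited 1 normalized signal per gene symbol and library. Values were read counts over a size factor per library (0.94343 to 1.17898), and the factors matched a median-of-ratios calculation within 0.0339%. Whole reads were recovered for 100% of the lower values, within a margin slightly over the rounding of 0.005. Higher values were rounded to the nearest read and not checked in this way. The submitters' processing notes name STAR 2.7, Salmon 1.4 and hg19, without roles; the annotation and counting settings are not given in the sources used here. Genes with a mean of at least 10 (13343) were compared on log2(value + 1) in one limma fit of all 21 libraries (limma 3.58.1, R 4.3.3; lmFit, contrasts.fit and a trended eBayes), with Benjamini-Hochberg adjustment over these genes within each comparison. Calls needed an adjusted p under 0.05, two-sided. The code of the test was checked on simulated data. There few genes changed, at d20 only, and no library stood apart, unlike in these data, so the check covers the code only.

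The members, lists, motifs and tests were chosen with earlier results of these data known. From each list the 3 genes with the largest called difference at d1 and at d20 were named, and *DCHS1*, *VGLL2* and *FOXF2* to complete counts. Values of named genes on other days were added after they were seen. *MOB1A*, *MOB1B* and *AJUBA* appear under older symbols. Alternatives were a pseudocount of 10, no filter (19546 genes), equal totals, quantile normalization, only the 2 groups compared, edgeR 4.0.16 and DESeq2 1.42.0 on recovered reads, a 2-fold minimum and each library left out. Figures used Python 3.11.15 and matplotlib 3.10.9. Promoter coordinates are those of RefSeq's build, another build than hg19.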

Additional observations from a re-analysis of the deposited data

How the results depend on the processing

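Of 1430 alternative values of the members' 110 log2 differences, 1340 kept their direction and side of the threshold, 41 lost the call, 26 gained it and 23 changed sign. In 5 of the 23 the value was called in 1 of the fits: *YAP1* at d1 (-0.14 with equal totals, -0.12 with quantile normalization), *YAP1* from d7 to d10 (-0.13 with quantile normalization), and *WWTR1* at d1 (-0.01) and d10 (-0.21), both with equal totals. The others were called in neither: with quantile normalization, *YAP1* from d4 to d7 (0.04), *WWTR1* at d10 (-0.09), *AXL* from d1 to d4 (0.04) and *CTGF* from d10 to d15 (0.02); with equal totals, *YAP1* from d7 to d10 (-0.02) and *TEAD4* at d15 (-0.11); with edgeR, *YAP1* from d4 to d7 (0.01) and *WWTR1* at d10 (-0.02). With one library left out, sign changes came in *YAP1* at d4 (-0.04 to 0.01), d15 (-0.02 to 0.01) and from d4 to d7 (-0.04 to 0.01), *WWTR1* at d10 (-0.04 to 0.05), *LATS2* (-0.04 to 0.09), *AMOTL2* (-0.05 to 0.20) and *AXL* (-0.29 to 0.02) from d4 to d7, and *AMOT* at d20 (-0.28 to 0.18). *TEAD3* at d20 became -0.08 with equal totals. Counts with a 2-fold minimum were 3, 3, 3, 4, 5 and 4 members at d1 to d20, 0, 2, 1, 1 and 0 members over the steps from d1 on, 1, 1, 3, 2, 2 and 1 regulators, 0 (d1) and 1 (d4, d7, d15 and d20) TEAD and VGLL genes, and 5, 7, 7, 6, 7 and 6 other targets. With only the 2 groups in the fit, 9 members were called from d1 to d4 and 2 from d4 to d7, against 5 and 5. Of all 13343 genes, 4819 rose and 4636 fell from d1 to d4 in that fit, against 4390 and 4266 in the main fit. From d4 to d7, 1970 rose and 2203 fell, against 3406 and 3406. Leaving out one library gave 4 to 8 members from d4 to d7, 8 being without the third d7 library. Over these fits 3026 to 3898 of all genes rose and 2987 to 4013 fell, the most without the third d7 library. Of the 5 TEAD and VGLL genes called at d20, 3 were called with equal totals, edgeR or DESeq2, and 3 to 5 with one library left out. The shares of all genes higher and lower at d20 were 19.9% and 50.8% with equal totals, 30.6% and 32.8% with edgeR, and 30.9% and 29.1% with DESeq2. Other counts of genes called in either direction were within 1.5 times. The split into higher and lower moved further with equal totals, as for the regulators at d1 (7 higher and 5 lower, against 14 and 1). No paired analysis was possible because column names give the timepoint without a replicate number. The depth limits *ANKRD1*, *AMOT* and *VGLL1*, which had few reads in some libraries, and counting limits cover counting error only.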
